A study of Mus musculus with 50 samples.

Results

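Homing and niche adhesion were examined through 10 genes chosen by name and not by a measured threshold: Cxcr4, S1pr1, Itga4, Itgb1, Itga6, Vcam1, Selplg, Cd44, Jam3 and Robo4. All 10 were among the 19224 gene symbols of the deposited counts. The cells came from B6-Ly5.2 mice that had been lethally irradiated and given a single haematopoietic stem cell (HSC) from a β-actin-GFP transgenic B6-Ly5.2 donor, with whole marrow of B6-Ly5.2 mice as competitor. Recipients were sampled 1 month (10 samples, 5 of them labelled as marrow with spleen), 4 months (26 samples, 4 with spleen) or 12 months (14 samples, 6 with spleen) later. Marrow or spleen cells were enriched for the surface receptor c-Kit and sorted singly by surface markers or GFP, so a sorted cell can be of donor or of other origin and the sort sets which classes are seen. Because the cell names could not be matched to months, tissues or sorts here, the cells were treated as 1 pooled sample without replicates. Nor is it known whether the sequencing libraries that share out the cells follow any of these groups. For that reason no p-value was made, and values over libraries are given as ranges and counts.

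Blood stem cells that enter or leave the marrow do so through a small set of surface proteins. Selectin ligands such as PSGL-1, encoded by Selplg, start rolling on endothelium, CD44 binds hyaluronan, and integrins then arrest the cell. The pair of integrin α4 and β1 (Itga4 and Itgb1) binds VCAM-1 (Vcam1) on stroma and endothelium, and α6 with β1 (Itga6 and Itgb1) binds laminin. The receptor CXCR4 holds cells near sources of the chemokine CXCL12, whereas S1PR1 senses sphingosine 1-phosphate, which is high in blood and lymph. JAM-C (Jam3) is an adhesion molecule that binds JAM-B, and ROBO4 is a receptor of the Roundabout guidance family; both are known on mouse HSCs and on endothelium.

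The positions below are those of the GENCODE M21 annotation of GRCm38. Cxcr4 lies on the minus strand at chr1:128588199-128592293, S1pr1 on the minus strand at chr3:115710433-115715072 and Vcam1 on the minus strand at chr3:116109949-116129688. Itga4 lies on the plus strand at chr2:79255426-79333123, Itga6 on the plus strand at chr2:71745616-71858416 and Itgb1 on the plus strand at chr8:128685654-128733200. Cd44 is on the minus strand at chr2:102811141-102901665 and Selplg on the minus strand at chr5:113818536-113832644. Jam3 is on the minus strand at chr9:27097384-27155421 and Robo4 on the plus strand at chr9:37401897-37415115. The Itga4 interval overlaps Cerkl on the other strand, and Cerkl has a row of its own in the counts, so reads of the pair could be shared if strand was not used in counting.

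RefSeq promoter windows on GRCm38.p6, from 250 bases before to 50 bases after a gene start, were available for 5 of the 10 genes. Those of Cxcr4 and Robo4 are shown because Robo4 had the lowest ratio of the 10 in cycling cells, and Cxcr4 was at least 2-fold higher in lineage-marker cells. Capitals mark matches, on either strand, to TATAAAA (the core promoter element named for these letters) or to CAGGAAG (an ETS-type element). TGACTCA (an AP-1 element) was also searched, and it matched none of the 5 windows. The Itgb1 and Cd44 windows, not shown, also hold CAGGAAG on the other strand, so this match is not particular to Robo4. Cd44 was also at least 2-fold higher in lineage-marker cells. Of 32851 such windows, 5.48% hold TATAAAA, 13.3% CAGGAAG and 5.20% TGACTCA. In the Cxcr4 window the matches on both strands overlap. A match is a description of these letters. The Cxcr4 window spans chr1:128592250-128592549 on the minus strand and the Robo4 window chr9:37401722-37402021 on the plus strand.
Cxcr4: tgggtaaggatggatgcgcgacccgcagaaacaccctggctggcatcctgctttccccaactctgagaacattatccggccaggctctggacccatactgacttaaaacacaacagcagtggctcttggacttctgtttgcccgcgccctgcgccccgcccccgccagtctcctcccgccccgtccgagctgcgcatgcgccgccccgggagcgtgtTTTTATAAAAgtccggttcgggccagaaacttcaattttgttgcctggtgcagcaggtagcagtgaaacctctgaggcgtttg
Robo4: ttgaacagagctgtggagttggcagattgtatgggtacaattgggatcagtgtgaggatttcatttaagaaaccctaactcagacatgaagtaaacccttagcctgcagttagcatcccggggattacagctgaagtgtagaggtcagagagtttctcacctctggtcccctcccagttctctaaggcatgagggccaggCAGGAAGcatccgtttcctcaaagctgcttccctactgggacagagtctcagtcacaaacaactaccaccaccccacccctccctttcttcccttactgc

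Of 4271 cells in 67 libraries of 22 to 92 cells, 4185 passed the filter of 1000 or more detected genes and no more than 10% mitochondrial counts. These had a median of 122013 counts and 4186 detected genes, and library totals ranged from 1665151 to 26184494. Cells were classed by genes other than the 10 members. Levels are in CPM, the counts of a gene scaled to one common total. A cell with at least 4 of 8 markers of a lineage list at 50 CPM or more was called a lineage-marker cell, which took 949 cells. Some lists, such as those of primary granule and erythroid genes, also mark progenitors, so the class is not one of mature cells only. A further 329 cells with at least 6 of 20 cell cycle genes were called cycling, and 2111 of the rest, or 50.4% of all cells, had at least 50 CPM of Procr, the gene of the stem cell marker EPCR (CD201). These 2111 are called Procr+ cells below. The last 796 cells met none of these rules. The stem cell transcription factor genes Hlf and Mecom were at 224 and 160 CPM in Procr+ cells. They were not particular to that class, at 183 and 134 CPM in the last 796 cells. In cells with neutrophil markers they were at 164 and 97.3 CPM, and in those with T cell markers at 11.6 and 11.2 CPM. The cycling class was deeper than the others, with a median of 196718 counts against 89467 in lineage-marker cells and 127369 in Procr+ cells.

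Lineage-marker cells were not cleanly apart from Procr+ cells. Procr was at or over 50 CPM in 384 of the 949, and in 226 of the 473 cells with neutrophil markers. In the 5 highest libraries the summed neutrophil and erythroid markers of Procr+ cells lay between 538 and 839 CPM. The median was 61.2 CPM over the 62 libraries with such cells. The next library stood at 506 CPM, so the 5 are the top of a ranking without a gap below them. Those 5 libraries held 197 of the 473 neutrophil-marker cells. The part of this RNA in the values below was not tested. For some genes and classes, lineage-marker values are therefore also given for cells with Procr under 50 CPM or without those libraries.

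Summed CPM is the CPM of a gene over the added counts of all cells of a class. Its exact 95% Poisson interval covers counting error only, and since counts come from amplified cDNA even that can be too narrow. The exact binomial intervals of shares take cells as independent, although cells share libraries. They too can be too narrow, and neither kind of interval serves as a test. In every class with at least 20 cells, Selplg, Cd44, Itga4 and Itgb1 were present at over 40 CPM, while Vcam1, S1pr1, Jam3 and Robo4 were each under 4 CPM in at least 1 class and over 20 CPM in another. Cells in which lists of 2 or more lineages tied form a class of their own.

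**Figure D1:**
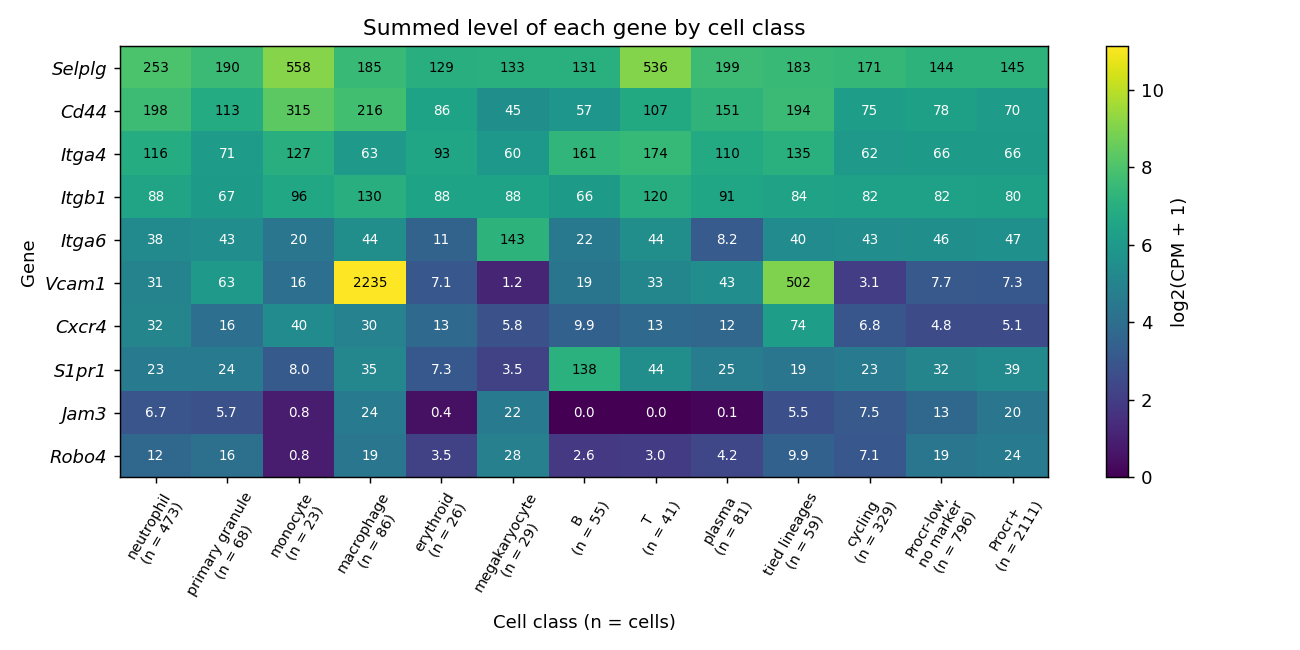
Summed CPM of each of the 10 genes (rows, values printed, color is log2(CPM + 1)) in 13 cell classes (columns, with their number of cells). Vcam1 reached 2235 CPM in macrophage-marker cells against 7.28 CPM in Procr+ cells, and Jam3 was at 0 in B-marker and T-marker cells against 19.8 CPM in Procr+ cells.

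In cycling cells, Robo4 and Jam3 stood lower than in non-cycling Procr+ cells, while the integrin genes, Cd44 and Selplg stayed within 2-fold. Of the 8 members at 16 CPM or more in either class, 0 were at least 2-fold higher and 2 at least 2-fold lower in cycling cells, against 6.24% higher and 3.63% lower of the 7457 genes with that level. Their median log2 ratio, with a pseudocount of 1 CPM, was -0.12, against -0.06 for all 7457.

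Robo4 was at 7.10 CPM (95% interval 6.51 to 7.72) in cycling cells and 23.9 CPM (23.4 to 24.5) in Procr+ cells, a log2 ratio of -1.62, and -2.59 with libraries weighted equally. In libraries with at least 10 cells of the class, Robo4 ran from 0.576 through a median of 6.89 to 23.5 CPM over 6 cycling sets, and from 3.25 through 23.0 to 62.8 CPM over 56 Procr+ sets, so the sets overlapped. Cycling cells were lower in 26 of the 28 libraries that held at least 5 cells of both classes, and in 6 of the 28 they had no Robo4 count at all. At 20000 counts a cell, Robo4 was found in 9.74% of 308 cycling cells (exact 95% interval 6.67 to 13.6) and 18.3% of 1996 Procr+ cells (16.6 to 20.1). Before thinning the shares were 22.8% of cycling cells and 28.1% of Procr+ cells.

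Jam3 was at 7.53 CPM (6.93 to 8.17) in cycling cells and 19.8 CPM (19.3 to 20.3) in Procr+ cells, a log2 ratio of -1.29, and -1.87 with libraries weighted equally. It ran from 0.322 through 11.8 to 23.4 CPM over 6 cycling sets and from 0.672 through 19.0 to 39.5 CPM over 56 Procr+ sets, which again overlapped. Cycling cells were lower in 21 of 28 libraries and at 0 in 7. The share of cells with a Jam3 count after thinning was 7.47% (4.79 to 11.0) in cycling cells and 15.1% (13.6 to 16.8) in Procr+ cells. In the 10 cycling cells with the most, Jam3 counts made up 58.8% of the class total, so the cycling level rests on few cells. With a pseudocount of 5 CPM the ratio was -0.99, just short of 2-fold.

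S1pr1, the sphingosine 1-phosphate receptor, was at 22.9 CPM in cycling cells and 39.4 CPM in Procr+ cells, a log2 ratio of -0.76, and was lower in 20 of 28 libraries. Its thinned shares, 17.2% (13.2 to 21.9) in cycling cells and 20.2% (18.5 to 22.0) in Procr+ cells, had overlapping intervals. Vcam1 stood at 3.09 CPM in cycling cells and 7.28 CPM in Procr+ cells, under the level set for a call, and 10 cells held 74.6% of its counts in the cycling class. Cxcr4, also under that level, was at 6.77 CPM in cycling cells and 5.09 CPM in Procr+ cells.

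Pooled over cells, the integrin genes differed little: Itga4 was at 61.7 CPM in cycling cells against 66.0 CPM in Procr+ cells, Itgb1 at 82.3 CPM in cycling cells against 79.5 CPM in Procr+ cells, and Itga6 at 42.5 CPM in cycling cells against 47.4 CPM in Procr+ cells. The pooled Itga6 ratio was -0.15, but Itga6 was lower in cycling cells in 18 of 28 libraries, with a library median of -0.84 and a ratio of -0.90 with libraries weighted equally. Cd44 was at 75.0 CPM in cycling cells against 70.3 CPM in Procr+ cells. Selplg was at 171 CPM in cycling cells against 145 CPM in Procr+ cells, a log2 ratio of 0.24. After thinning, a Selplg count was found in 86.7% of cycling cells against 66.5% of Procr+ cells. An Itgb1 count was found in 63.6% of cycling cells against 45.2% of Procr+ cells. Itga6 was found in 34.7% of cycling cells against 27.3% of Procr+ cells although its summed level was slightly lower in cycling cells, so a share of cells is not read as a level here.

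**Figure D2:**
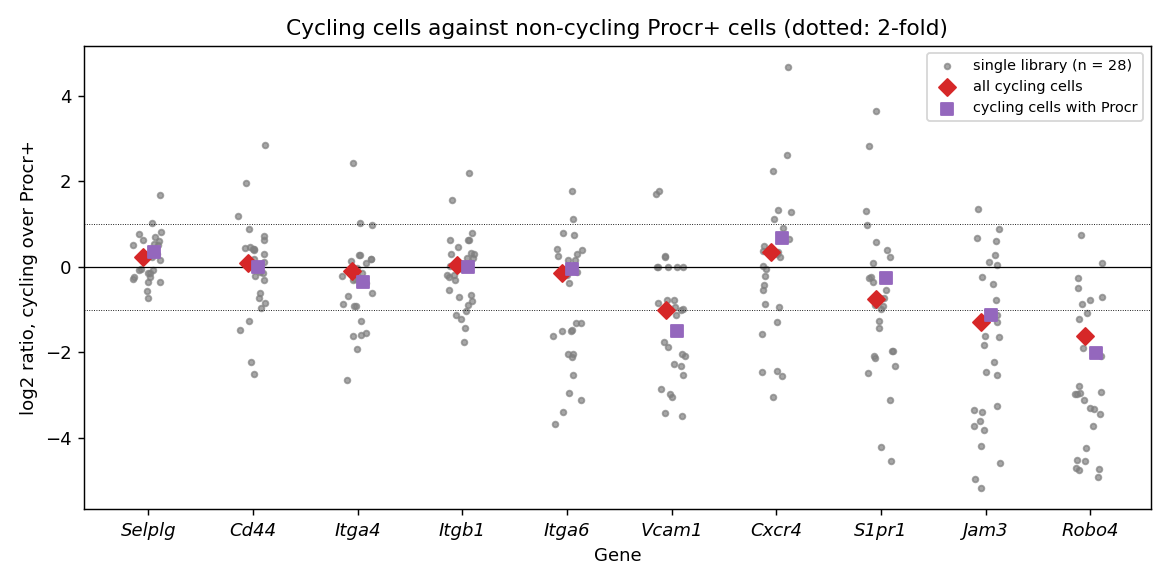
Log2 ratio (pseudocount 1 CPM) of each gene in cycling over Procr+ cells: grey points are 28 libraries with at least 5 cells of both classes, red diamonds all 329 cycling cells and purple squares the 153 cycling cells that also had Procr. Robo4 and Jam3 lie below the dotted 2-fold line in both pooled ratios, at -1.62 and -1.29 for all cycling cells.

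**Figure D3:**
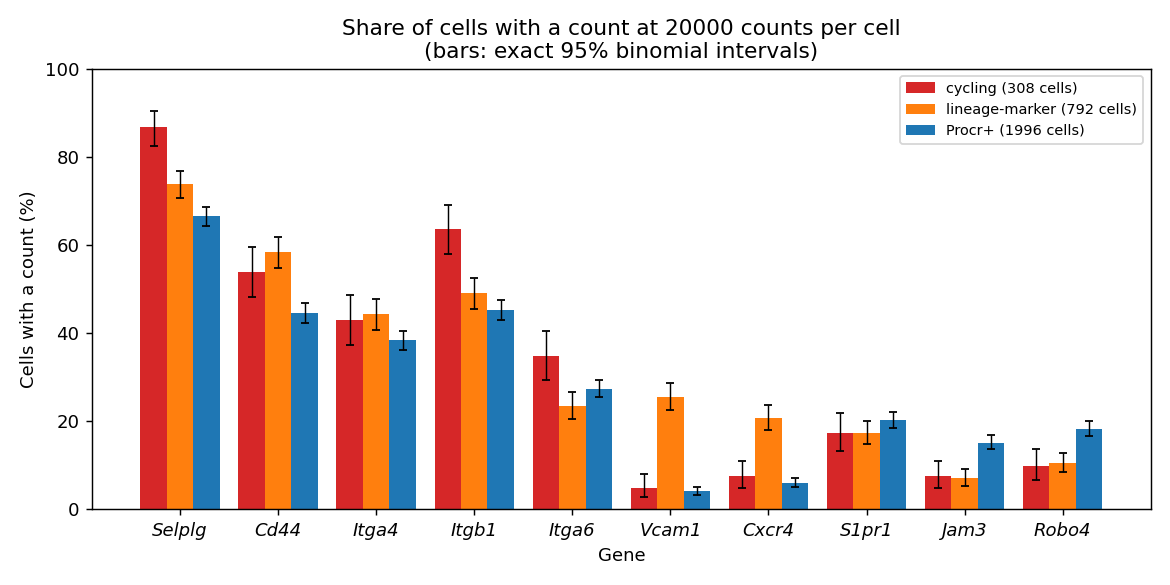
Share of cells (percent) with a count of each gene at 20000 counts per cell in cycling, lineage-marker and Procr+ cells, with exact 95% binomial intervals. The intervals take cells as independent, although cells share libraries. Robo4 and Jam3 were found in 9.74% and 7.47% of cycling cells against 18.3% and 15.1% of Procr+ cells.

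The 153 cycling cells that also had Procr showed the same 2 genes beyond 2-fold: 0 members higher and 2 lower, against 5.93% and 2.7% of 7485 genes. Robo4 was at 5.20 CPM in them (log2 ratio -2.01) and lower in 5 of 5 libraries. Jam3 was at 8.53 CPM (-1.13), lower in 3 of 5 libraries. The Jam3 call was lost under 5 alternatives: its ratio was -0.58 when Procr+ meant 200 CPM or more, -0.97 with any Procr count, -0.87 with 4 of 20 cell cycle genes, -0.63 after thinning and -0.87 with a pseudocount of 5 CPM. S1pr1 was at 32.6 CPM in these cycling cells, nearer to the 39.4 CPM of Procr+ cells than in all cycling cells. Its ratio of -0.27 was not stable, running from -1.06 to 0.39 over the alternatives.

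From lists of related genes, Hmmr, a hyaluronan receptor gene that also acts in mitosis, was at 117 CPM in cycling cells and 1.16 CPM in Procr+ cells, and Spp1, which encodes the niche protein osteopontin, at 26.9 CPM in cycling cells and 4.81 CPM in Procr+ cells. Jam2, the gene of the JAM-C partner JAM-B, was lower, at 5.54 CPM in cycling cells and 17.3 CPM in Procr+ cells. St3gal6, a sialyltransferase that helps to make selectin ligands, was at 15.9 CPM in cycling cells and 35.7 CPM in Procr+ cells. Of genes at the level for a call, 0 of 5 chemokine and lipid genes, 0 of 5 integrins and 0 of 16 adaptors passed 2-fold, and Jam2 was the 1 of 8 junction and guidance genes that did. Of 9 selectin and hyaluronan genes, 2 (Hmmr and Spp1) were higher and 1 (St3gal6) lower. Both Hmmr and Spp1 reached the level only through cycling cells, so the filter itself made them higher. Of all 7457 genes at that level, 6.24% were higher and 3.63% lower, so a count of 0 or 1 in lists this small is near the share over all genes.

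In lineage-marker cells, Cxcr4, Cd44 and Vcam1 stood higher and Jam3 lower than in Procr+ cells. All 10 members were at the level for a call. Of these, 3 were at least 2-fold higher and 1 at least 2-fold lower, against 11.1% and 1.75% of 8043 genes. Cxcr4 and Vcam1, at 5.09 and 7.28 CPM in Procr+ cells, reached the level of 16 CPM only through lineage-marker cells. The filter itself therefore made them higher, and their place in the count of 3 is no separate result. The same holds in each single lineage class below where Cxcr4 or Vcam1 was called. Vcam1 was at 352 CPM in lineage-marker cells and 7.28 CPM in Procr+ cells (log2 ratio 5.41), higher in 16 and lower in 6 of 24 libraries, and at 2.31 with libraries weighted equally. The 86 macrophage-marker cells gave 38376 of the 46187 Vcam1 counts of the 949 lineage-marker cells, and the 59 cells with tied lineages 4616. Cxcr4 was at 28.7 CPM in lineage-marker cells and 5.09 CPM in Procr+ cells (2.29), but was higher in only 14 of 24 libraries, and with libraries weighted equally the ratio was 0.24. Cd44 was at 174 CPM in lineage-marker cells and 70.3 CPM in Procr+ cells (1.30), higher in 19 of 24, and at 0.99 with equal weights.

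Jam3 was at 7.99 CPM in lineage-marker cells and 19.8 CPM in Procr+ cells (-1.21), lower in 20 of 24 libraries, at -0.93 with a pseudocount of 5 CPM and at -2.12 with libraries weighted equally. Robo4, at 11.8 CPM in lineage-marker cells and 23.9 CPM in Procr+ cells, had a ratio of -0.96, and -1.93 with libraries weighted equally. In the lineage-marker cells with Procr under 50 CPM, Jam3 and Robo4 were both at -2.09 and Itga4 at 1.06. Without the 5 marker-rich libraries Robo4 was at -1.27, and Cxcr4, Cd44 and Vcam1 at 2.21, 1.41 and 5.85. Itga4 and Selplg were at 106 and 240 CPM in lineage-marker cells, 0.68 and 0.72 above Procr+ cells on the log2 scale. S1pr1 was at 25.9 CPM in lineage-marker cells and 39.4 CPM in Procr+ cells (-0.59), and lower in 18 of 24 libraries with a library median of -1.08. Its ratio depended on the weighting: -1.24 with libraries weighted equally, 0.21 with each cell weighted equally and 0.06 after thinning.

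**Figure D4:**
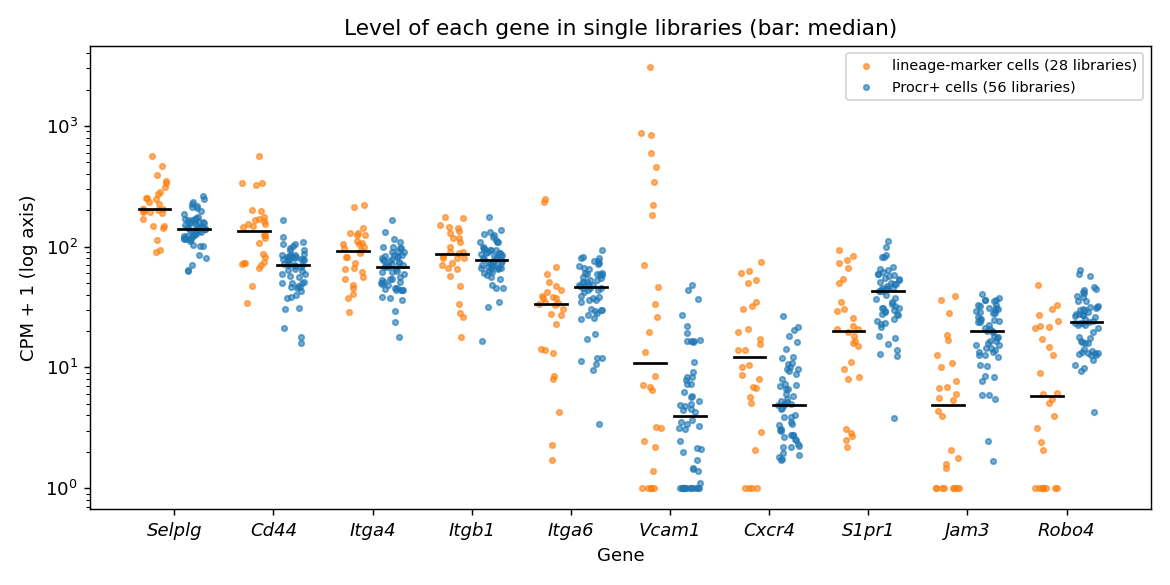
Level of each gene (CPM + 1, log axis) in single libraries with at least 10 cells of the class: orange points are 28 lineage-marker sets, blue points 56 Procr+ sets, and black bars medians. Cd44 medians were 134 CPM in lineage-marker sets and 69.9 CPM in Procr+ sets, Jam3 medians 3.86 CPM in lineage-marker sets and 19.0 CPM in Procr+ sets, and the sets of both classes overlapped for each gene.

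Vcam1 stood apart in the 86 cells with macrophage markers, at 2235 CPM (2212 to 2257), or a log2 ratio of 8.08. A count was found in 88.4% of these cells (exact 95% interval 79.7 to 94.3) against 11.7% of Procr+ cells, at median depths of 196100 and 127369 counts. After thinning, the shares were 81.7% of macrophage-marker cells and 4.16% of Procr+ cells. Of 10 members, 3 were at least 2-fold higher and 0 at least 2-fold lower, against 14.6% and 3.06% of 8128 genes. Macrophage-marker cells with Procr under 50 CPM held Vcam1 at 4220 CPM (39 cells) and those with Procr at or over it at 615 CPM (47 cells), and all 4 libraries with both classes were higher. Robo4 was at 1.94 CPM in the 39 and 33.6 CPM in the 47, and Jam3 at 12.4 and 33.4 CPM. The count of 0 members lower is therefore one of the pooled class. The macrophage-marker ratio of Cxcr4, 2.33 from 29.6 CPM, rested on 1 library: it was 0.16 without it, and -1.12 with libraries weighted equally. That of Cd44, 1.60 from 216 CPM, was 0.67 without the same library.

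Cells with neutrophil markers held Cxcr4 at 32.2 CPM, Cd44 at 198 CPM and Vcam1 at 30.5 CPM, each at least 2-fold above Procr+ cells, and Jam3 at 6.67 CPM, at least 2-fold below. These were 3 members higher and 1 lower, against 11.4% and 2.17% of 8020 genes. Itga4 was at 174 CPM in the neutrophil-marker cells with Procr under 50 CPM and at 52.0 CPM in those with more. The 23 monocyte-marker cells held Cd44 at 315 CPM, Selplg at 558 CPM and Cxcr4 at 40.0 CPM, ratios of 2.15, 1.94 and 2.75. In the same cells S1pr1, Jam3 and Robo4 were at 7.97, 0.839 and 0.839 CPM. Itga6 was at 19.9 CPM in them (-1.21), a call lost under 4 alternatives, with ratios of -0.53 with each cell weighted equally, -0.59 after thinning, -0.91 without 1 library and just under 2-fold with 5 of 8 markers. With Itga6, these made 3 members higher and 4 lower, against 15.9% and 21.1% of 7946 genes. The 68 cells with primary granule markers had 1 member higher, Vcam1 at 62.8 CPM, and 1 lower, Jam3 at 5.68 CPM, against 7.61% and 4.53% of 7742 genes. Vcam1 was at 116 CPM in the 32 of them with Procr under 50 CPM and 8.64 CPM in the other 36. Its ratio of 2.94 turned to -0.17 with equal weights for the 3 libraries that held at least 5 cells of both classes.

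In cells with lymphoid markers, Itga4 was higher in the summed level and Jam3 was not found. B-marker cells held Itga4 at 161 CPM (1.28, and 0.80 without the 5 marker-rich libraries) and S1pr1 at 138 CPM (1.79). In the 1 library with at least 5 cells of both classes the S1pr1 direction was the reverse, at -2.89, with no S1pr1 count in its B-marker cells. S1pr1 was counted in 49.1% of 55 B-marker cells against 29.4% of Procr+ cells, although B-marker cells had a median of 44888 counts and Procr+ cells 127369. Jam3 was counted in 0 of 55 B-marker cells, which allows a share of up to 5.45%, and in 0 of 41 T-marker cells, which allows up to 7.32%. With a floor of 3 counts per class, Jam3 was 22.7-fold lower in B-marker and 35.3-fold lower in T-marker cells than in Procr+ cells. That floor takes counts as independent, but they come from amplified cDNA, with a median of 10 counts per detected gene in a cell. These folds are therefore not firm lower bounds. T-marker cells held Itga4 at 174 CPM and Selplg at 536 CPM, ratios of 1.39 and 1.88. After thinning, the Itga4 ratio was under 2-fold in both, at 0.96 in B-marker and 0.90 in T-marker cells. In B-marker cells 3 members were higher and 3 lower, against 15.1% and 25.8% of 7947 genes, and in T-marker cells 3 were higher and 2 lower, against 14% and 17.2% of 7901. One of the B-marker members higher, Vcam1 at 18.9 CPM (1.27), was at 0.19 without 1 library, and one of those lower, Itga6 at 21.9 CPM (-1.08), was at -0.75 with a stricter filter on detected genes.

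Plasma cell markers came with low Itga6, at 8.20 CPM (-2.39), and with Jam3 at 0.124 CPM, a single count. Erythroid-marker cells were also low in Itga6, at 10.6 CPM, and in S1pr1 and Robo4, at 7.26 and 3.50 CPM. Itga6 was at 2.64 CPM in the 16 of these cells with Procr under 50 CPM and 23.1 CPM in the other 10. Robo4 was at 0.441 CPM in the 16 and 8.29 CPM in the 10. Of the 26 erythroid-marker cells, 22 also held at least 6 of the 20 cell cycle genes, as did 206 of all 949 lineage-marker cells. The summed cell cycle genes were at 4819 CPM in erythroid-marker cells and 172 CPM in Procr+ cells, and their part in these values was not tested. Plasma markers had 2 members higher and 3 lower, against 12.8% and 24.6% of 7719 genes (Cd44, 1 of the 2 higher, was at 0.69 with 3 of 8 markers), and erythroid markers 0 higher and 4 lower, against 12.6% and 19.9% of 7740. In these classes the median ratio of all genes was itself -0.32 for plasma and -0.15 for erythroid markers, and it was -0.22 for B and -0.18 for monocyte markers. Megakaryocyte-marker cells held Itga6 at 143 CPM (1.58, but 0.68 without 1 library that gave 12 of the 29 cells), with Jam3 at 22.1 and Robo4 at 28.1 CPM near the Procr+ levels. S1pr1 in them was at 3.54 CPM against 39.4 CPM in Procr+ cells (-3.15), a call that was lost with 3 of 8 markers, at -0.79. These were 1 member higher and 1 lower, against 9.14% and 10.2% of 7700 genes. The 59 cells with tied lineages had 4 members higher and 2 lower, against 19.9% and 12.8% of 8347 genes, and 10 of those cells held 98.2% of their Vcam1 counts. Of these 6 calls, 5 did not hold under every alternative: in the 1 library with at least 5 cells of both classes, Cd44 (-0.84), Vcam1 (-0.73) and Robo4 (2.49) turned round and Cxcr4 was at 0.80, and Itga4 (1.02) was under 2-fold with 7 alternatives, at 0.65 to 0.98.

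Among related genes, the chemokine receptor gene Ccr2, itself one of the monocyte markers, was at 80.1 CPM in lineage-marker cells and 1.13 CPM in Procr+ cells. Cxcr2, the receptor of neutrophil chemokines, was at 41.6 CPM in lineage-marker cells and 0.757 CPM in Procr+ cells. The integrin gene Itgax was at 24.6 CPM in lineage-marker cells and 0.186 CPM in Procr+ cells. Esam, an endothelial-type adhesion gene used to mark HSCs in mice, was at 88.0 CPM in lineage-marker cells and 205 CPM in Procr+ cells. Of 10 chemokine and lipid genes at the level for a call, 6 were higher and 0 lower, and of 9 integrins 5 were higher and 0 lower, against 11.1% and 1.75% of all 8043 genes. Most of those higher reached the level only through lineage-marker cells, so the filter itself made them higher. They were Cxcr2, Cxcr3, Ccr2, Sphk1 and Gpr183, and the integrin genes Itgal, Itgam and Itgax. These counts are therefore not read as a result about the lists. In the other lists, 2 of 8 selectin and hyaluronan genes were higher and 0 lower, 0 of 8 junction and guidance genes higher and 1 lower, and 1 of 16 adaptors higher and 0 lower. Hmmr, 1 of the 2, also reached the level only through lineage-marker cells.

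Within Procr+ cells, 6 gates were compared with the cells outside each: Vwf, Slamf1, Cd34 or Flt3 at 50 CPM or more, and sets of interferon or immediate early genes. In these gates 0 of the 8 members at the level for a call were at least 2-fold higher or lower. Over the alternatives some of these ratios passed 2-fold. S1pr1 ran from 0.72 to 1.33 in the immediate early gate and from -1.59 to 0.10 in the Vwf gate. Inside the interferon gate S1pr1 ran from -1.28 to -0.20 and Robo4 from -1.03 to -0.23. Of all genes, 0.992% were higher and 0.53% lower inside the Vwf gate, 0.111% and 0.0278% inside the Slamf1 gate, and 0.277% and 0.333% inside the Cd34 gate. The shares were 0.152% and 0.138% inside the Flt3 gate, 0.513% and 0.0693% inside the interferon gate, and 0.747% and 0.18% inside the immediate early gate. Among the 8 members at that level, the largest ratio in absolute size was that of S1pr1 in the immediate early gate. It was at 60.5 CPM inside and 34.8 CPM outside (0.78), higher in 23 of 31 libraries. Jam3 was at 16.4 CPM in cells with Cd34 and 28.3 CPM in those without (-0.75, lower in 27 of 46 libraries), and at 29.2 CPM inside and 18.9 CPM outside the Vwf gate (0.60, higher in 10 of 15). Its partner gene Jam2 was at 12.5 CPM with Cd34 and 29.1 CPM without. Robo4 was at 16.7 CPM inside and 25.3 CPM outside the interferon gate (-0.58, lower in 21 of 31). Vcam1, under the level for a call, was at 15.5 CPM inside and 6.48 CPM outside the Vwf gate (1.14), higher in 6 and lower in 9 of 15 libraries.

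**Figure D5:**
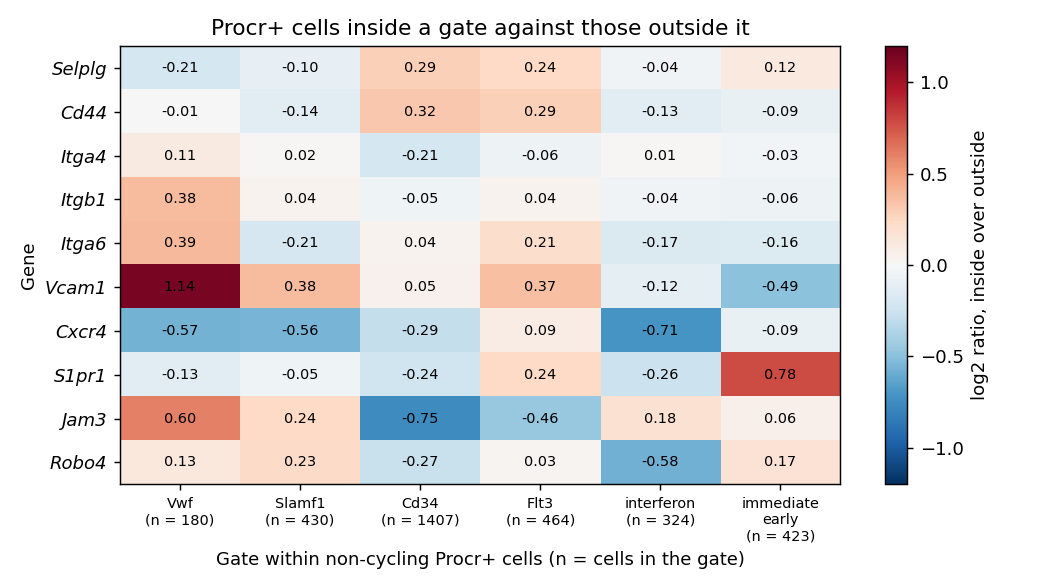
Log2 ratio (pseudocount 1 CPM) of each gene inside over outside 6 gates among non-cycling Procr+ cells; the number of cells inside is printed. No member with the level for a call passed 2-fold, and the ratios farthest from 0 among those were 0.78 for S1pr1 and -0.75 for Jam3.

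The 796 cells under the thresholds for Procr, lineage markers and cell cycle genes differed little from Procr+ cells in the pooled ratios. They did not lack Procr, which was at 9.40 CPM in them. Members were at least 2-fold higher or lower in 0 of 8, against 0.263% and 0.0831% of 7221 genes. Jam3 was nevertheless at 12.7 CPM in these 796 cells against 19.8 CPM in Procr+ cells (-0.60, and -1.35 to -0.48 over the alternatives). S1pr1 was at 32.0 CPM in the 796 cells against 39.4 CPM in Procr+ cells.

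Over the 13 classes with at least 20 cells, genes with the most similar profile to each member were listed by Pearson's r of log2(CPM + 1), as a description, since classes share libraries and marker genes. The profile of Jam3 was most like that of Afap1l1 (0.96), that of Robo4 most like Lgals8 (0.93), and that of S1pr1 most like Zmynd8 (0.90). Itga6 ran with Rab27b (0.95), a gene of platelet granule release, and with Treml1 (0.92), which is one of the megakaryocyte markers. Vcam1 ran with Rgl1 (0.91) and with the macrophage marker Mrc1 (0.91). Itga4 was most like the T cell gene Ms4a4b (0.94), Cxcr4 most like Agfg1 (0.94), Cd44 most like Vsir (0.96), Selplg most like Mcub (0.90) and Itgb1 most like Fyn (0.83).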

How the data were processed

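The deposited matrix holds raw, whole-number counts per gene symbol and cell, with no normalization by the authors. The submitters' processing notes name HTSeq 0.9.1, HISAT2 2.1.0, Trimmomatic 0.36 and GRCm38, with no strand setting, and do not say whether copies of one molecule were collapsed. Per the labels' protocols, cells were sorted singly and 3' ends were enriched; no doublet caller was run. The columns of 1 further library, 17 cells, were not used. Cell numbers recur between libraries (95 distinct), and 0 columns were identical.

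Counts were summed per class and scaled to CPM; log2 ratios used a pseudocount of 1 CPM, and a gene was called at 2-fold or more where either class held at least 16 CPM. Shares were compared after thinning to 20000 counts, which left out 359 of 4185 cells. No test was run. The fold step was also run on simulated Poisson counts of whole classes. These had no variation between cells or libraries, so that run says nothing about such variation in the data. Python 3.11.15, numpy 2.4.6, scipy 1.17.1 and pandas 2.3.3 were used. The genes, lists and class rules were chosen with earlier results of these data known. Named related genes are up to 5 of the lists per comparison and direction, by size, and up to 3 similar profiles per member. Alternatives covered cell filters, class definitions, scaling, thinning and library weights.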

Additional observations from a re-analysis of the deposited data

How the results depend on the processing

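Over 19 alternatives, 921 of 968 values of the 52 member ratios called kept their sign and 2-fold size, 40 kept the sign but not the size, 6 changed sign and 1 came to 0. Setting Procr+ at any count, cycling at 4 of 20 genes, or thinning left 1 member lower in cycling Procr+ cells, and a pseudocount of 5 CPM left 1 lower in all cycling and 1 in cycling Procr+ cells. For lineage-marker cells, 2 members were lower with Procr at 200 CPM, 5 of 8 markers, 100 CPM for a marker, equal cell weights, thinning, a total without mitochondrial and ribosomal protein genes, without the 5 marker-rich libraries, or (chosen after seeing the data) with Procr under 50 CPM only, and 0 with a pseudocount of 5. With equal library weights 1 member was higher and 3 lower. The same weights reversed ratios that rest on 1 to 4 libraries: Vcam1 in primary granule cells (-0.17), S1pr1 in B-marker cells (-2.89), Cxcr4 in macrophage-marker cells (-1.12), and Cd44 (-0.84), Vcam1 (-0.73) and Robo4 (2.49) in cells with tied lineages; the cause was not tested. Jam3 in B-marker cells came to 0, since neither class had a Jam3 count in the 1 library compared. No paired analysis was possible because cells could not be tied to the samples and their numbers. Classes were paired within libraries only as counts of libraries and with equal library weights, without a test. Depth limits low genes: a single count can be all of a class's signal.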

Other observations

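At 20000 counts a cell, a Procr+ cell held counts of a median of 3 of the 10 genes, and 2.20% of 1996 such cells held none. Cells with at least 5 of them made up 18.5% of cycling cells, 21.2% of lineage-marker cells and 11.2% of Procr+ cells. Itga4 was found in 37.0% of the Procr+ cells with Itgb1 and in 38.4% of all Procr+ cells. Of the Procr+ cells with a Jam3 count, 18.9% also had Robo4, against 18.3% of all Procr+ cells, and Jam3 was found in 15.6% of those with Robo4. Vcam1 counts in Procr+ cells were concentrated, with 44.6% of them in 10 of 2111 cells.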
